A study of Mus musculus with 8 samples.

Results

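The genes described here are 10 genes whose proteins are used to sort or to mark blood stem cells of the mouse: Kit, Ly6a, Slamf1, Cd48, Cd34, Flt3, Procr, Esam, Cd27 and Fgd5. They were chosen by name, not by any measured value, and each was read from the probe set that the platform annotation assigns to that gene alone. That annotation paired a probe set with 8 of the 10, out of 19505 named genes in all. Ly6a, which encodes Sca-1, and Cd27 were not analysed here. Each of the 8 had 1 probe set.

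The arrays held RNA of bone marrow cells of mice aged 6 to 10 weeks, sorted for the absence of lineage antigens and of CD48 and for the presence of c-Kit, Sca-1 and CD150. After sorting, all cells were cultured with stem cell factor at 100 ng/ml. They were exposed for 16 h either to eltrombopag at 10 µg/ml or to sterile water as the vehicle, with 4 arrays per group numbered 1 to 4. The strain, the sex and the number of mice behind an array are not given in the labels. Arrays are labelled biological replicates, but whether separate mice stood behind each is not stated, and the p-values here cover only the spread among these arrays, which may be technical. The comparison asks whether exposure to the drug was accompanied by a difference in the transcripts of the very markers by which such cells are recognised.

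Blood stem cells are rare, and no single surface protein identifies them. KIT is the receptor for stem cell factor and sits on stem cells and early progenitors alike. CD150, encoded by Slamf1, and CD48 belong to the SLAM family of immune receptors, and long-term stem cells of the mouse carry the former and lack the latter. CD34, a sialomucin, and FLT3, a receptor tyrosine kinase, are known in mouse bone marrow for rising at the surface as stem cells give way to multipotent progenitors. The endothelial protein C receptor encoded by Procr, the adhesion molecule ESAM and the guanine nucleotide exchange factor FGD5 are used to enrich for stem cells. Eltrombopag activates the human thrombopoietin receptor but not that of the mouse, and it also binds iron.

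Slamf1 and Cd48 encode the 2 SLAM receptors of the gate and lie side by side, with starts 85140 bases apart on chromosome 1 in RefSeq's GRCm38.p6. Their promoters are shown because these neighbours were selected in opposite directions in the sort. Each sequence is the 250 bases before the start on the plus strand, from RefSeq, at chr1:171766882-171767131 for Slamf1 and chr1:171681742-171681991 for Cd48.
Slamf1: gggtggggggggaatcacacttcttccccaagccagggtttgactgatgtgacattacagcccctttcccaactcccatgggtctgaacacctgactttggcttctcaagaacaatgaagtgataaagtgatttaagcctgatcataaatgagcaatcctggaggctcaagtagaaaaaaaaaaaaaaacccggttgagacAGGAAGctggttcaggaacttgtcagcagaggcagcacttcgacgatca
Cd48: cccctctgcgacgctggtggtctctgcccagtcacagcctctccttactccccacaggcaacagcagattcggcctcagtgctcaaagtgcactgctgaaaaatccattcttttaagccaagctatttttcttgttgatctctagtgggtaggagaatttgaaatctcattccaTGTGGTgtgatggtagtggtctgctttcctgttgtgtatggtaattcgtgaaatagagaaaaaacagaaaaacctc
The capitals mark a match to an ETS motif (AGGAAG) in Slamf1, 49 bases before the start, and to a RUNX motif (TGTGGT) in Cd48, 76 bases before it. Both strands were searched for these motifs, for a GATA motif (AGATAA) and for an E-box (CAGCTG). No motif overlapped another in the 2 windows. Windows of the same length held the ETS motif in 29.5% of 32851 promoters, the RUNX motif in 14.0%, the GATA motif in 9.99% and the E-box in 13.0%. Promoter sequences were at hand for 7 of the 8 genes measured, all but Esam, in 8 windows, as Kit had more than 1. The GATA motif as searched (AGATAA, either strand) was in none of these 8 windows. Other forms of it were not searched for, and the Slamf1 window does hold the letters GATA.

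The arrays were closely alike, with Pearson correlations across genes between 0.9868 and 0.9933 for all pairs. The first principal component set the arrays numbered 1 and 2 of both groups apart from those numbered 3 and 4, and the arrays numbered 3 stood apart in the Y-linked transcript Uty, with 7.71 and 6.98 against 3.02 to 3.31 in the other 6. Array values are on a log2 scale, and the brightness of a probe set depends on its probes, so levels of different genes are not ranked against one another. The label of the cells was set against markers by their place within each array, and the limit of probe brightness holds for that check too. Of 8 transcripts of stem cells other than those listed above, 5 lay above the upper quartile in all 8 arrays (Hlf, Mecom, Pdzk1ip1, Meis1 and Gata2) and none lay below the median in all 8. Ctnnal1, with values from 6.02 to 6.95, lay on both sides of the median. Of 14 measured targets of lineage antibodies, 12 lay below the median in all 8 arrays. Of these targets only Ptprc, the pan-leukocyte antigen CD45, lay above the upper quartile in all 8. Of 9 neutrophil and monocyte genes, 1 did so too, Prtn3. In bulk RNA, fewer cells of a kind and less RNA per cell cannot be told apart.

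None of the 8 marker genes passed when the drug was set against its vehicle. In limma, 0 of 19505 genes (0%) had an adjusted p under 0.05 and 650 (3.33%) an unadjusted p under 0.05. Of the 8 genes, 0 had an unadjusted p under 0.05, and the smallest was 0.207 for Cd48. With the replicate number as a block, 0 of the 8 had an unadjusted p under 0.05 too, beside 4.63% of all genes. The groups overlapped in 8 of 8 genes, and over all genes they did not overlap in 2.12%. For 0 of the 8 genes, and for 12.6% of all genes, all 4 numbers moved the same way. With eltrombopag 4 of the 8 were higher and 4 lower, and 52.3% of all genes were higher. Their median log2 difference was 0.028, against 0.0071 over all genes, and their median absolute difference was 0.064, against 0.083. The adjusted p in limma was 0.99978 for all 8.

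**Figure D1:**
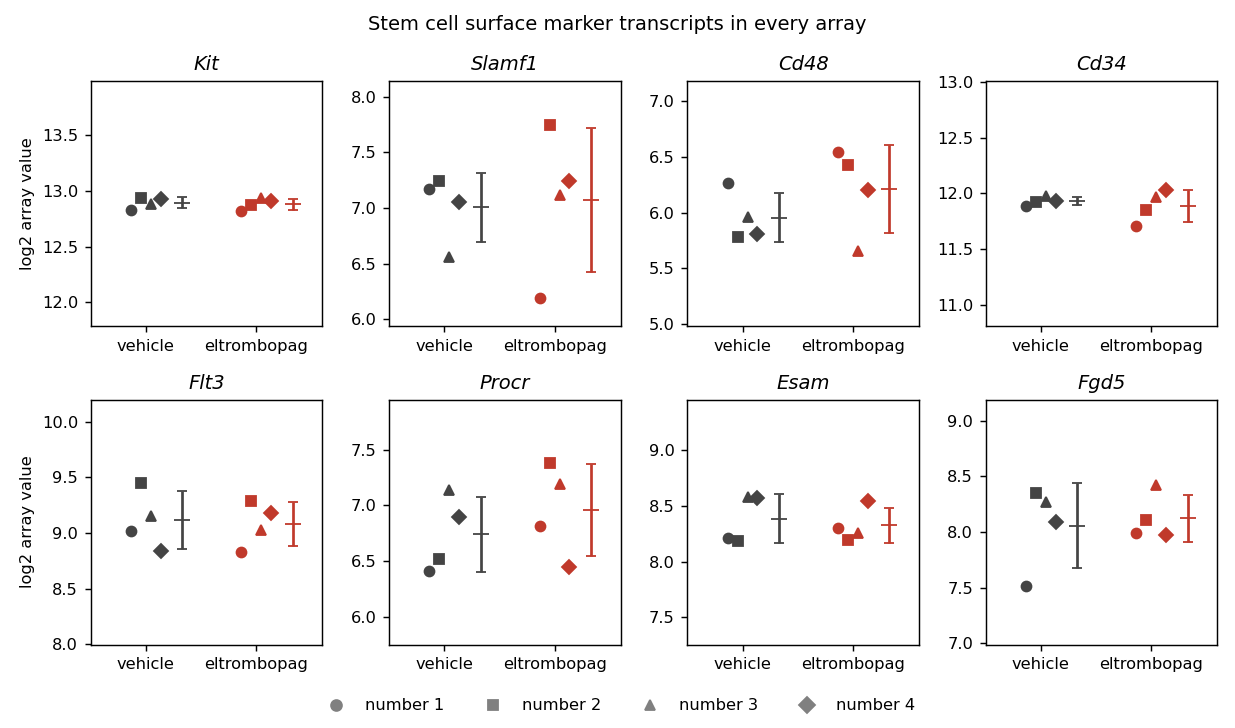
Log2 array values of the 8 genes (vertical axis, the same span of log2 units in each panel) in the 4 vehicle and 4 eltrombopag arrays; the marker shape gives the replicate number, and the bar beside each group is the mean with its SD. Kit and Cd34 lay within narrow bands, Slamf1 ran from 6.19 to 7.75 in the eltrombopag arrays, and the 2 groups overlapped for every gene shown.

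Kit, the receptor for the cytokine added to the medium, hardly varied. With vehicle its log2 values were 12.83, 12.94, 12.89 and 12.93 in arrays 1 to 4, and with eltrombopag 12.82, 12.87, 12.93 and 12.91. The 2 groups covered nearly the same narrow range, with array 1 the lowest of each. Its log2 difference was -0.0099 (SE 0.085, adjusted p 0.99978 in limma), with a 95% interval from -0.20 to 0.18. Its within-group SD of 0.050 lay at percentile 0.70 of all genes. Kit also lay near the top of the array scale, whose highest values ran from 13.22 to 13.35, and the part of this in its small spread was not tested.

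Slamf1, the transcript of the CD150 on which the cells were selected, was the most variable of the 8. Its log2 values with vehicle were 7.17, 7.24, 6.56 and 7.05 in arrays 1 to 4. With eltrombopag they were 6.19, 7.75, 7.12 and 7.24. The lowest and the highest of all 8 values were thus both in the eltrombopag group, in arrays 1 and 2. The vehicle mean was 7.01 ± 0.31 (SD, n = 4) and the eltrombopag mean 7.07 ± 0.65 (SD, n = 4), and the within-group SD of 0.51 lay at percentile 98.0 of all genes. The log2 difference was 0.067 (SE 0.28, adjusted p 0.99978 in limma), with a 95% interval from -0.56 to 0.69. Single arrays set the sign: the difference was 0.36 without eltrombopag array 1 and -0.16 without eltrombopag array 2. Within numbers 1 and 2 it was -0.24 and within numbers 3 and 4 it was 0.37.

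Cd48, whose protein was selected against, had the largest difference of the 8. Its log2 values were 6.27, 5.79, 5.96 and 5.81 with vehicle in arrays 1 to 4, and 6.55, 6.43, 5.66 and 6.20 with eltrombopag. Eltrombopag arrays 1 and 2 lay above every vehicle array, array 4 lay above vehicle arrays 2, 3 and 4, and array 3 lay below them all. In all 8 arrays Cd48 was below the median and above the lower quartile of the array. The vehicle mean was 5.96 ± 0.22 (SD, n = 4) and the eltrombopag mean 6.21 ± 0.39 (SD, n = 4). The log2 difference was 0.25 (SE 0.19, adjusted p 0.99978 in limma), or 1.19-fold, with a 95% interval from 0.89-fold to 1.59-fold. Without both arrays numbered 3 it was 0.44 (unadjusted p 0.0278 and adjusted p 0.9998 in limma). Within numbers 1 and 2 it was 0.46, and within numbers 3 and 4 it was 0.044.

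Cd34 and Flt3, the markers of the step from stem cell to multipotent progenitor, were not part of the gate. Both lay above the upper quartile of each of the 8 arrays. The log2 values of Cd34 were 11.89, 11.92, 11.97 and 11.93 with vehicle in arrays 1 to 4, and 11.71, 11.85, 11.97 and 12.03 with eltrombopag. The vehicle values fell inside the range of the eltrombopag values. Its log2 difference was -0.039 (95% interval -0.26 to 0.18, adjusted p 0.99978 in limma). Flt3 had 9.01, 9.45, 9.15 and 8.84 with vehicle and 8.83, 9.29, 9.03 and 9.18 with eltrombopag. It was lower with eltrombopag within numbers 1, 2 and 3, by 0.18, 0.16 and 0.12, and higher within number 4, by 0.34. The log2 difference was -0.033 (95% interval -0.36 to 0.29, adjusted p 0.99978 in limma).

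Among the genes used to enrich for stem cells, Procr varied most. Its protein binds protein C, and on stem cells it is known as EPCR or CD201. The log2 values were 6.41, 6.52, 7.14 and 6.90 with vehicle in arrays 1 to 4, and 6.82, 7.38, 7.19 and 6.45 with eltrombopag. Eltrombopag arrays 2 and 3 were the highest of the 8, while eltrombopag array 4 was below 3 of the 4 vehicle arrays. The log2 difference was 0.22 (SE 0.22, adjusted p 0.99978 in limma), with a 95% interval from -0.26 to 0.70. It was 0.63 within numbers 1 and 2 and -0.20 within numbers 3 and 4, so its direction was not the same in both sets of arrays.

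Esam encodes an immunoglobulin-type adhesion protein of endothelial and stem cells. Its log2 values were 8.21, 8.19, 8.58 and 8.57 with vehicle in arrays 1 to 4, and 8.30, 8.19, 8.26 and 8.55 with eltrombopag. The log2 difference was -0.062 (95% interval -0.35 to 0.22, adjusted p 0.99978 in limma), and it was 0.025 without both arrays numbered 3. Fgd5, an activator of the small GTPase CDC42 whose transcript marks stem cells, had 7.51, 8.35, 8.27 and 8.09 with vehicle. With eltrombopag it had 7.99, 8.11, 8.42 and 7.97. Vehicle array 1 was the lowest of all 8, and without it the log2 difference of 0.066 (95% interval -0.34 to 0.47, adjusted p 0.99978 in limma) became -0.12.

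For 5 of the 8 genes (Kit, Cd34, Flt3, Esam and Fgd5) the 95% interval excluded a 1.5-fold difference in either direction, as it did for 88% of all genes. The intervals of Slamf1, Cd48 and Procr reached 1.62-fold, 1.59-fold and 1.62-fold. A 2-fold difference was outside the interval of 8 of 8 genes, as it was for 19258 of all 19505 genes. The intervals are not adjusted over genes. In exact permutation tests over the 8 arrays, two-sided, the smallest p among the 8 genes was 0.314, for Cd48, where the smallest that 4 against 4 arrays can give is 0.0286.

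**Figure D2:**
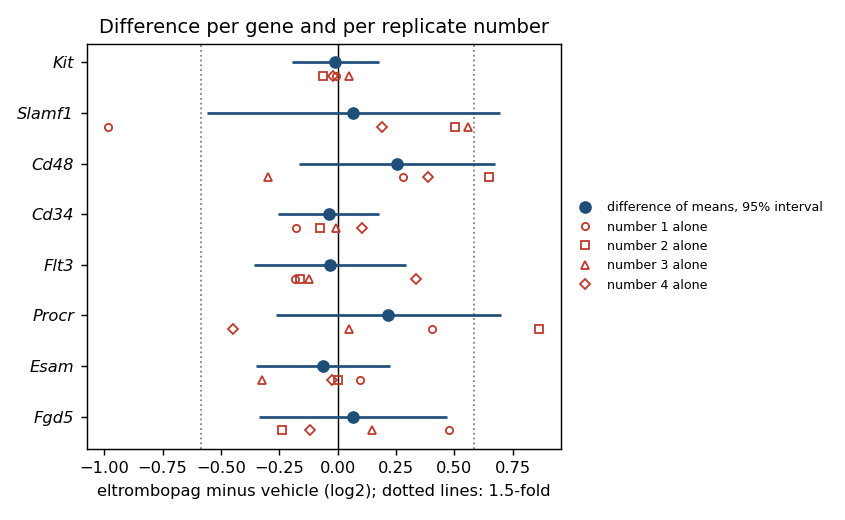
Log2 difference, eltrombopag minus vehicle, of each gene (filled points, with the 95% interval of limma as a line) and of each replicate number alone (open markers); dotted lines stand at a 1.5-fold difference. Every interval crosses 0, and the 4 numbers lie on both sides of 0 for each gene.

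The ligands and partners of these receptors were read from lists of related genes, and 0 members of any list passed between eltrombopag and vehicle (limma, adjusted p under 0.05). Kitl, which encodes stem cell factor itself, had log2 values of 5.79, 5.65, 5.77 and 5.47 with vehicle in arrays 1 to 4, and 5.82, 5.64, 5.77 and 5.44 with eltrombopag. Arrays of the same number thus lay within 0.033 of each other, and the 95% interval of the difference ran from -0.26 to 0.26. The FLT3 ligand gene Flt3l differed by -0.064 (interval -0.33 to 0.20). Cd244a, whose protein is the receptor for CD48, differed by 0.058 (interval -0.20 to 0.32). Of 37 genes of KIT and FLT3 signalling besides the receptors, 11 were higher and 26 lower with eltrombopag, with a median log2 difference of -0.026, and 0 had an unadjusted p under 0.05. The smallest p in that list was that of Ptpn11, the phosphatase SHP2 (-0.17, unadjusted p 0.164 in limma).

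In the SLAM family with its adaptors 5 of 11 genes were higher, with a median of -0.0054. Sh2d1a, the adaptor SAP of SLAM receptors, was the only one with an unadjusted p under 0.05, beside 3.33% of all genes. It had 5.39, 5.37, 5.92 and 5.56 with vehicle and 5.41, 5.15, 5.29 and 5.05 with eltrombopag, a difference of -0.33 (unadjusted p 0.0361, adjusted p 0.99978 in limma), and eltrombopag array 1 lay above 2 vehicle arrays. In the remaining lists of partners 0 genes had an unadjusted p under 0.05 without the replicate block. With the block 3 did, beside 4.63% of all genes, and 0 passed: Serpinc1, the gene of antithrombin, was higher within all 4 numbers (0.34, unadjusted p 0.00814 in limma), and Ly6c1 (unadjusted p 0.0392) and Thy1 (-0.31, unadjusted p 0.0476) were lower within 3 of 4. Of the Ly6 and other GPI-anchored surface proteins 10 of 19 were higher (median 0.062), and Ly6c1 had the smallest p (-0.36, unadjusted p 0.0756 in limma). Of the CD34 family and adhesion partners 15 of 23 were higher (0.044), and the scaffold gene Magi1 had the smallest p (0.22, unadjusted p 0.0529 in limma). For the protein C receptor pathway 5 of 12 were higher (-0.021), for partners of CD27 7 of 13 (0.0076), and for the FGD family with CDC42 6 of 15 (-0.0090).

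Lists of other markers of these cells held no gene that passed either. Of 29 further stem cell surface markers 13 were higher and 16 lower (median -0.031). Of 20 other stem cell markers, mostly inside the cell, 6 were higher and 14 lower (-0.045). Of 25 genes of multipotent progenitors 9 were higher and 16 lower (-0.066). In these lists 0 genes had an unadjusted p under 0.05 without the replicate block, beside 3.33% of all genes. With the block Thy1 and Mpo did (0.0476 and 0.0212 in limma), beside 4.63% of all genes. Emcn, the sialomucin endomucin, had the smallest p of the surface markers, with 8.68, 8.48, 7.17 and 8.10 with vehicle and 8.40, 8.87, 8.39 and 8.78 with eltrombopag (difference 0.50, unadjusted p 0.103 in limma). Vehicle array 3 was far below the rest, and without it the difference was 0.19. Cdkn1c, the cell cycle inhibitor p57, differed by 0.30 (unadjusted p 0.0591 in limma), and Mpo, the myeloperoxidase of granulocytes and their precursors, by 0.29 (unadjusted p 0.0738 in limma). Over the 14 lineage antibody targets, the mean log2 value ran from 5.69 to 5.79 with vehicle and from 5.64 to 5.75 with eltrombopag. That mean includes Ptprc, a pan-leukocyte antigen that does not single out the cells that the sort should remove. Without the replicate block, the megakaryocyte, neutrophil and monocyte, mast cell and basophil, and endothelial and stromal lists held 0 genes with an unadjusted p under 0.05. The erythroid list held 1 of 3, beside 3.33% of all genes. That gene was Epor, which encodes the erythropoietin receptor, while Klf1 and Alas2 differed by 0.024 and -0.047. Epor had 6.14, 6.497, 6.17 and 6.53 with vehicle in arrays 1 to 4 and 6.90, 6.54, 6.48 and 6.79 with eltrombopag. It was higher within all 4 numbers (difference 0.34, unadjusted p 0.0283, adjusted p 0.99978 in limma).

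The replicate numbers parted the arrays more than the drug did, and the second question was whether the marker genes took part in that. A moderated F-test of limma across the 4 numbers, with the group as a term, called 41 genes (0.21%) at an adjusted p under 0.05, and 1986 (10.2%) had an unadjusted p under 0.05. Of the 8 genes, 0 passed and 0 had an unadjusted p under 0.05. The test treats the 2 arrays of a number as independent samples. The smallest p among them was that of Fgd5, with number means of 7.75, 8.23, 8.35 and 8.03 for numbers 1 to 4 (unadjusted p 0.0619, adjusted p 0.509). For Flt3 the means were 8.92, 9.37, 9.09 and 9.01 (unadjusted p 0.117 in limma), and for Slamf1 6.68, 7.49, 6.84 and 7.15 (unadjusted p 0.184 in limma). The count of 0 at an unadjusted p under 0.05 depended on single arrays, and it stayed 0 in 2 of the 8 fits that left out 1 array. Of all 19505 genes, 1443 to 1952 had such a p in those 8 fits. Slamf1 had an unadjusted p of 0.00113 without vehicle array 1 (adjusted p 0.248 in limma) and of 0.0206 without eltrombopag array 1. Fgd5 had 0.0179 without eltrombopag array 1 and 0.0441 without eltrombopag array 2. For Cd48 it was 0.0129 without vehicle array 3, for Flt3 0.0260 without eltrombopag array 4, and for Procr 0.0409 without vehicle array 4. In these fits the adjusted p in limma of these genes was 0.248 or higher.

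Among the 29 other stem cell surface markers, 13 had an unadjusted p under 0.05 across the numbers, or 44.8%, beside 10.2% of all genes. Without both arrays numbered 3 there were 10 of 29, and 0 of the 8 genes. Over the alternatives other than leaving out 1 array, this fit among them, 1400 to 2356 genes in all had such a p. Of the 13, 11 were on average higher in numbers 3 and 4 than in numbers 1 and 2. Not all of the 11 split that way by number. Bmpr1a had number means of 4.58, 3.96, 4.17 and 4.52, and Il6st had 8.92, 9.58, 9.54 and 9.39. Bmpr1a and Neo1 were dim, below the lower quartile in 8 and 7 arrays. Clec1a, a C-type lectin, was the only one of the 29 that passed, with 7.58, 7.0002, 8.72 and 8.53 with vehicle in arrays 1 to 4 and 7.68, 7.62, 8.80 and 8.83 with eltrombopag (adjusted p 0.0416 in limma). In both groups the arrays numbered 3 and 4 lay clear above those numbered 1 and 2. Tek, the angiopoietin receptor TIE2 of quiescent stem cells, had number means of 6.90, 7.35, 8.15 and 8.30 and did not pass (adjusted p 0.239 in limma). Thy1 ran the other way, with 6.90, 7.23, 6.01 and 5.94 (adjusted p 0.107 in limma).

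Podxl, which encodes podocalyxin, the sialomucin most closely related to CD34, also passed across the numbers. It had 8.21, 8.20, 6.87 and 7.17 with vehicle in arrays 1 to 4 and 8.07, 7.89, 6.81 and 6.88 with eltrombopag (adjusted p 0.0284 in limma). Its arrays numbered 1 and 2 were high in both groups, while the number means of Cd34 ran only from 11.80 to 11.98 (adjusted p 0.801 in limma). Pik3cd, a catalytic subunit of the PI3-kinase that acts below KIT, had number means of 8.30, 8.38, 7.16 and 6.74 (adjusted p 0.0230 in limma). Kit itself ran from 12.82 to 12.92 (adjusted p 0.940 in limma). The calls of Clec1a, Podxl and Pik3cd were lost when any single array was left out, with adjusted p-values from 0.0762 to 0.176, and also without both arrays numbered 3.

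**Figure D3:**
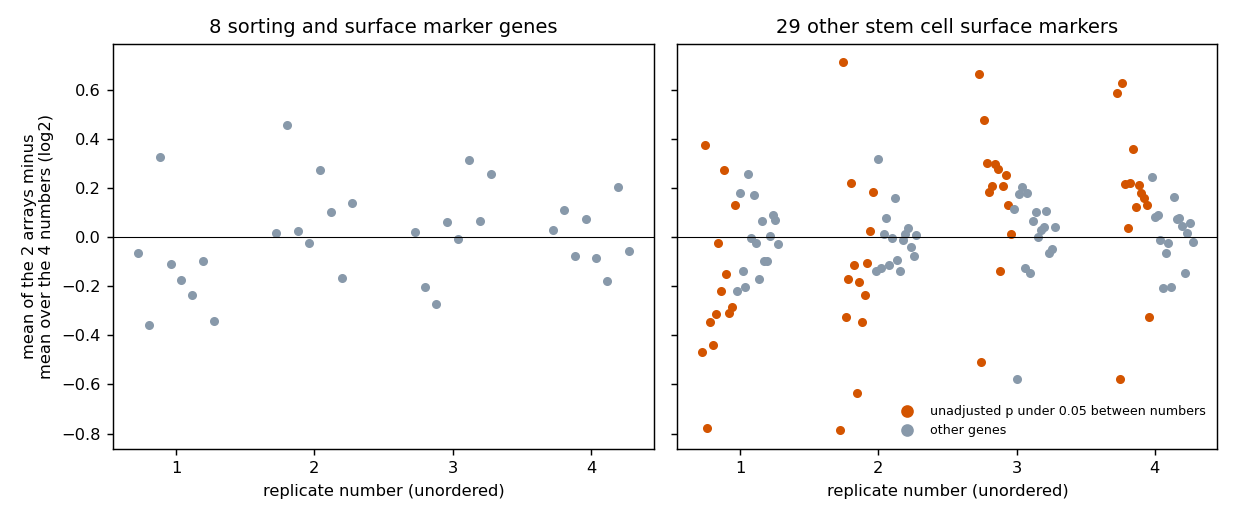
Mean of the 2 arrays of each replicate number minus the mean over the 4 numbers (log2) for the 8 sorting and surface marker genes (left) and for 29 other stem cell surface markers (right); each point is 1 gene, shifted sideways in a fixed order, and orange marks an unadjusted p under 0.05 in limma's F-test between numbers. No gene is orange on the left, and 13 of 29 are orange on the right.

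After the group means were taken out, the Pearson correlations over the 8 arrays ran from -0.89 to 0.75 over the 28 pairs of genes. They are given as a description, since arrays of the same number lay together and all genes share the arrays. The lowest was that of Kit with Cd48, and Cd48 was also lowest where Fgd5 was highest (-0.74). Kit ran with Fgd5 (0.75) and with Cd34 (0.70), in spans of 0.12 for Kit and 0.32 for Cd34 over the 8 arrays. Slamf1 and Cd48, neighbours on the chromosome, had a correlation of -0.18. For Slamf1, the gene with the widest range (1.56 log2 units), the 3 most alike of all genes were Jmjd8 (0.968), Dpf2 (0.966) and Adad2 (0.964) over the 8 arrays, picked from 19505 genes.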

How the data were processed

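Per the submitters' processing notes, the authors made the deposited values with RMA, oligo and limma (no versions named), which gave a log2 value for each probe set on each array. RMA sets arrays to a common distribution, which removes differences in total RNA. Per the labels' protocols, about 10 ng of RNA was amplified with a 3' kit. A genome build for the probe sets was not given in the sources used here.

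The table held 22206 probe sets on 8 arrays, and 19572 had 1 gene symbol in the platform annotation. Of several probe sets for a gene, the one with the highest mean was used. Equal values were found in 0 probe sets in any pair of arrays. limma 3.58.1 in R 4.3.3 (lmFit, eBayes, two-sided) was fitted to 19505 genes, with Benjamini-Hochberg adjustment over all and a threshold of 0.05, and no filter on dim genes. Precision is limited by having 8 arrays, with 95% intervals reaching a median of 0.28 to either side. The fits were tested on simulated data.

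The genes and the 16 lists of related genes (259 of 292 entries matched) were chosen with earlier results of these data known. Named were all 8 genes, up to 3 genes per list with the smallest p in each test, direct ligands and partners, and the 3 genes most alike to the widest-ranging one. Deviations from group means of same-numbered arrays correlated at 0.232, 0.286, 0.181 and 0.133 for numbers 1 to 4. Vehicle array 3 with eltrombopag array 4 gave 0.167, and vehicle array 4 with eltrombopag array 3 gave 0.166. These correlations, not the labels, thus spoke for pairing by number in numbers 1 and 2, and did not part number 3 from number 4. The Y-linked transcript Uty did part them, with 7.71 and 6.98 in the arrays numbered 3 against 3.24 and 3.09 in those numbered 4. The values, intervals and p-values given are from the fit without pairing by number, except where the replicate block is named. Alternatives were 2 other scalings, a filter to genes above the median, array weights, a variance trend, the replicate number as a block or random effect, the mean of all probe sets, and arrays left out.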

Additional observations from a re-analysis of the deposited data

Results flagged for a closer look

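Of 78 sets of 4 arrays examined for the genes named in the text, 1 held an array well outside the rest, where chance at about 1 in 20 would give 3.9. For Cd244a, the receptor of CD48, vehicle array 1 read 9.002 on the log2 scale while the remaining vehicle values spanned 9.23 to 9.27. Eltrombopag array 1 was the lowest of its own group too, at 9.04.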

How the results depend on the processing

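Between eltrombopag and vehicle, limma called 0 genes in 19 of 19 alternatives, with 304 to 945 genes at an unadjusted p under 0.05, and 0 of the 8 marker genes in any of them. With the replicate block it called 0 genes (904 at an unadjusted p under 0.05, smallest adjusted p 0.984), and the block changed no call of the genes named. The sign of small differences was less firm. Without both arrays numbered 3, Slamf1 differed by -0.097, Esam by 0.025, Kitl by -0.0011 and Flt3l by 0.011. With numbers 1 and 2 only, Slamf1 differed by -0.24 and Esam by 0.049. With numbers 3 and 4 only, Kit differed by 0.015, Cd34 by 0.050, Flt3 by 0.11, Procr by -0.20 and Kitl by -0.012. Kitl differed by -0.015 with quantile normalization once more and by -0.0098 with equal medians. Leaving out 1 array in turn moved Kit between -0.032 and 0.012, Slamf1 between -0.16 and 0.36, Cd34 between -0.087 and 0.021, Flt3 between -0.12 and 0.079, Esam between -0.14 and 0.0024, Fgd5 between -0.12 and 0.16, Kitl between -0.067 and 0.076, and Cd244a between -0.021 and 0.12. Cd48 and Procr kept their sign there (0.14 to 0.44 and 0.076 to 0.39). The cause was not tested. Between replicate numbers, the 41 called genes became 203 with a variance trend, 3 to 17 when 1 array was left out, and 2 without both arrays numbered 3, an alternative chosen after seeing the data, where fewer arrays were fitted. The number of the 8 genes at an unadjusted p under 0.05 was 0 to 2 when 1 array was left out. That of the 29 other surface markers was 8 to 12, beside 1443 to 1952 of all 19505 genes. Cd48 lay under the median and had no value once dim genes were filtered out.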

Other observations

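Some markers of mature lineages differed widely between replicate numbers without passing the test. At an unadjusted p under 0.05 between numbers there were 1 of 3 erythroid genes, 4 of 9 neutrophil and monocyte genes, 0 of 4 megakaryocyte genes and 0 of 6 mast cell and basophil genes, beside 10.2% of all genes. Alas2, the heme synthesis enzyme of red cell precursors, had number means of 7.79, 7.77, 9.11 and 8.90 for numbers 1 to 4 (adjusted p 0.117 in limma). S100a8, a calcium-binding protein of neutrophils, had 4.81, 4.19, 6.42 and 5.34 (adjusted p 0.117 in limma), and was dim, below the lower quartile, in 3 arrays. Ms4a3, a gene of granulocyte and monocyte progenitors, was highest in number 1, with 8.68, 7.51, 7.11 and 7.11 (adjusted p 0.161 in limma). None of these 3 passed without a variance trend. With a variance trend each of them did, at adjusted p-values of 0.0124, 0.0113 and 0.0239.

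Of the 20 stem cell markers that are mostly, but not all, inside the cell, 2 passed across the numbers, beside 0.21% of all genes. An unadjusted p under 0.05 was found for 6 of 20, beside 10.2%. Ifitm1, an interferon-induced membrane protein, had 11.95, 11.89, 10.62 and 10.55 (adjusted p 0.0220 in limma). Aldh1a1, a retinaldehyde dehydrogenase, had 7.51, 7.21, 8.56 and 8.24 (adjusted p 0.0356 in limma). Both calls were lost when any single array was left out, with adjusted p-values from 0.0738 to 0.191. Selp, the adhesion receptor P-selectin, had 7.94, 7.97, 9.20 and 9.07 (unadjusted p 0.0177, adjusted p 0.400 in limma).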
